A study of Homo sapiens with 6 samples.

Results

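The genes described here are 47 genes of interferon signalling and interferon response, out of 24294 loci measured by RNA sequencing in MCF12A cells. They were chosen by name, from the receptors through the kinases and transcription factors to the interferon-stimulated genes, and each matched a single locus of the table by its symbol. Of the 47 genes, 31 reached a mean of 1 FPKM over the 6 libraries and were tested. FPKM counts sequenced fragments scaled to transcript length and to sequencing depth. The other 16 genes were under that minimum, and their values are given without a test. Of all loci, 11574 of 24294 (47.6%) were tested.

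MCF12A is an immortalized human mammary epithelial line, which the labels call a breast cancer line. The first group, miR-424, holds 3 samples of MCF12A cells with a stable miR-424 construct, and the second, EV, holds 3 samples of MCF12A cells with the empty vector. All were grown for 48 hours, and nothing given describes the vector's promoter, how many clones each line came from, or whether replicate samples are separate experiments. The spread behind the p-values may therefore be technical in part or in full. The comparison asks which transcripts differ when the microRNA is over-expressed.

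Interferons are secreted proteins that cells release on sensing viral nucleic acid. They bind paired receptors at the cell surface, the receptor-bound kinases JAK1 and TYK2 phosphorylate STAT proteins, and STAT2 joins IRF9 in the complex ISGF3, which enters the nucleus and binds a DNA element called the ISRE in front of interferon-stimulated genes. Many of these genes encode antiviral proteins. Epithelial cells carry the receptors and express part of the program at a low level without added interferon.

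The microRNA is shown here because its seed, bases 2 to 8 in capitals, is what pairs with target messages. The sequence is from RefSeq (GRCh38.p14, chrX:134546680-134546701, minus strand), 5′ to 3′.
hsa-miR-424-5p: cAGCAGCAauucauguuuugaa

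The sequences before the gene start of 3 genes that differed between the groups are shown with the ISRE core in capitals, the element through which interferon acts on this gene class. The motif searched was GAAA, any 2 bases and GAAA again, on both strands, in windows of 250 bases before to 50 bases after each gene start (RefSeq, GRCh38.p14). OAS3 is at chr12:112938224-112938473 on the plus strand, IFI6 at chr1:27672193-27672442 on the minus strand and IFI44L at chr1:78620198-78620447 on the plus strand. Each is printed 5′ to 3′ and ends at the base before the start.
OAS3: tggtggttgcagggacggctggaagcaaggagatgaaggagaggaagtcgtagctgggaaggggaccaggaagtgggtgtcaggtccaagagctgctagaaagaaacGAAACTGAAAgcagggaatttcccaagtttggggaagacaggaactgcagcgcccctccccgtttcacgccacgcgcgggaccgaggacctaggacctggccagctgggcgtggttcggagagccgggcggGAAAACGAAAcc
IFI6: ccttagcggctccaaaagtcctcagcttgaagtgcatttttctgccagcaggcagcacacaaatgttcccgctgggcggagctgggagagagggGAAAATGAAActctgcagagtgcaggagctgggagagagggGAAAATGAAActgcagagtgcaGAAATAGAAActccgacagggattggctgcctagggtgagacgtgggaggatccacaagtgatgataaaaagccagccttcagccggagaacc
IFI44L: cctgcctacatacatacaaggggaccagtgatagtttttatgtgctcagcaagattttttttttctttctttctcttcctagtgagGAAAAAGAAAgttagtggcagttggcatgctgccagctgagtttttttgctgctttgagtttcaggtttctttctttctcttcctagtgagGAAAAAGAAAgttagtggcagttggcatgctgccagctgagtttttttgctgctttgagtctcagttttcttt

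The OAS3 window holds 2 copies of the motif, which begin 143 and 12 bases before the gene start, and the IFI6 window holds 3, at 156, 115 and 93 bases. In IFI44L the 2 copies lie in a stretch of 85 identical bases that occurs at a distance of 91 bases from itself, and in IFI6 a stretch of 29 identical bases recurs at a distance of 41 bases and carries 1 copy each time. Of 38 of the 47 genes with a promoter in the RefSeq table, 21 (55.3%) held the motif, against 3.57% of all 35116 promoters. The genes were chosen as interferon genes, so this share describes the choice. The letters TTCNNNGAA, a core bound by STAT dimers and the same on both strands, occurred in 8 of the 38 (21.1%), IRF1 and IRF9 among them, against 7.66% of all promoters. The PARP9 window held neither motif and that of its neighbour DTX3L held 1 ISRE core. A match of letters is a description of the sequence.

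As a check of the labels, the locus that holds the microRNA was at 107, 106 and 224 FPKM in miR-424 cells and 0.989, 1.27 and 1.23 FPKM in EV cells. Of 10 mammary epithelial markers 7 were tested, of which KRT14 was higher and KRT5 lower in miR-424 cells, and CDH1, KRT19 and TP63 were each under 0.2 FPKM in all libraries. Their sum was 328 to 351 FPKM in miR-424 cells and 354 to 369 FPKM in EV cells. Of 6 fibroblast markers DCN was the most abundant, with a mean of 125 FPKM over all libraries and overlap between the groups. COL1A1 was higher in miR-424 cells. LUM and PDGFRB, low in all libraries, were above EV in every miR-424 library, and COL1A2 and PDGFRA were near 0. The sum was 164 to 185 FPKM in miR-424 cells and 156 to 166 FPKM in EV cells. The 7 leukocyte markers summed to 2.06 to 2.34 FPKM in miR-424 cells and 2.22 to 2.36 FPKM in EV cells, and the 4 endothelial markers to 0.224 to 0.282 FPKM in miR-424 cells and 0.288 to 0.322 FPKM in EV cells. The part of these marker differences in the results was not tested. In replicate 3 of the miR-424 group the median of all tested loci lay -0.11 from the EV mean on the log2 scale, against -0.02 in each of replicates 1 and 2.

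Interferon genes as a group showed few differences between miR-424 and EV cells. OAS3, an enzyme that makes the activator of the antiviral RNase L, fell in miR-424 cells. So did the antiviral membrane protein gene IFI6 and PARP9, a member of the PARP family. IFI44L, an antiviral interferon-stimulated gene of little-known function, rose. At a Benjamini-Hochberg adjusted p under 0.05 in limma over all tested loci, 4 of 31 tested genes passed, 1 higher and 3 lower, against 7.56% of all tested loci in either direction, 1.24% higher and 6.32% lower. Counts of 1 and 3 among 31 genes are close to what these shares give. At an unadjusted p under 0.05 in limma 2 of the 31 were higher (6.45%) and 7 lower (22.6%), against 4.29% and 19.3% of all tested loci. Median-of-ratios scaling moved the split of all loci to 308 higher (2.66%) and 495 lower (4.28%), against 144 and 731 with the values as deposited, and that of the interferon genes to 2 and 3. The median log2 change of the 31 tested genes was -0.05, and that of all tested loci was also -0.05. In 24 of the 31 (77.4%) the estimate was negative, against 68.3% of all tested loci. In these whole-culture samples fewer cells expressing a gene and less RNA per cell cannot be told apart.

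**Figure D1:**
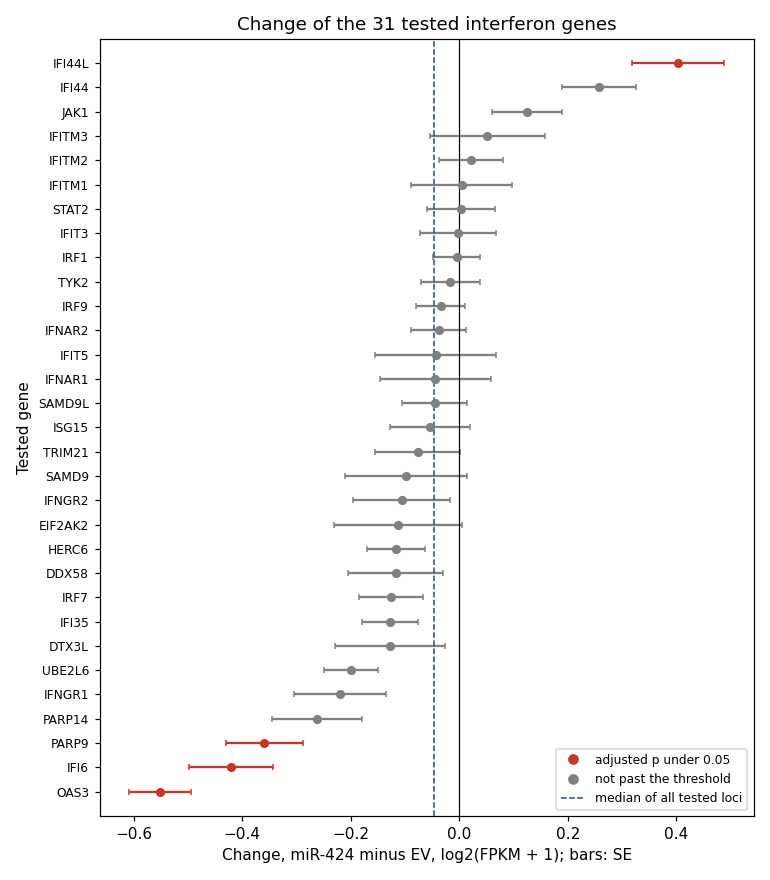
Change of each of the 31 tested interferon genes, miR-424 minus EV on the log2(FPKM + 1) scale (horizontal axis, bars are standard errors), sorted from highest to lowest. The 4 red genes passed the adjusted p of 0.05: IFI44L at 0.40 above, and PARP9, IFI6 and OAS3 at -0.36, -0.42 and -0.55 below; the dashed line is the median of all tested loci at -0.05.

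The receptors were among the most abundant of the 47 genes. IFNGR1 and IFNGR2, the chains of the interferon-gamma receptor, averaged 36.8 and 44.3 FPKM over the 6 libraries, and IFNAR1 and IFNAR2, the chains of the receptor for interferons alpha and beta, 15.1 and 13.4 FPKM. IFNGR1 was at 36.3, 36.3 and 29.4 FPKM in miR-424 cells and at 41.2, 38.4 and 39.2 FPKM in EV cells. All miR-424 libraries were below all EV libraries, but the log2 change of -0.22 ± 0.08 (SE) did not pass (limma, adjusted p = 0.181).

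IFNGR2 was at 45.01, 46.6 and 36.7 FPKM in miR-424 cells and at 47.5, 45.6 and 44.5 FPKM in EV cells. IFNAR1 was at 15.9, 16.5 and 12.3 FPKM in miR-424 cells and at 15.4, 15.3 and 15.2 FPKM in EV cells. Replicates 1 and 2 of the miR-424 group lay among the EV libraries for IFNGR2 and above them for IFNAR1, and replicate 3 was the lowest of the 6 libraries for each of the 4 chains. IFNAR2 was at 13.3, 13.8 and 12.6 FPKM in miR-424 cells and 13.6, 14.2 and 13.1 FPKM in EV cells, with overlap. The adjusted p of these 3 chains in limma lay between 0.543 and 0.855. IFNAR2, IFNAR1 and IFNGR2 lie close together on chromosome 21, and the locus of IFNGR2 overlaps that of TMEM50B, so that reads of both may be shared.

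The kinases JAK1 and TYK2 averaged 17.4 and 15.8 FPKM over the 6 libraries. JAK1, which serves all these receptors, was at 19.4, 18.6 and 16.5 FPKM in miR-424 cells and at 16.6, 16.9 and 16.1 FPKM in EV cells (log2 change 0.12 ± 0.06, SE; limma adjusted p = 0.301). Its replicates 1 and 2 in miR-424 cells lay above every EV library and replicate 3 among them. Without replicate 3, JAK1 was higher by 0.19 (limma, adjusted p = 0.00411). TYK2, the partner kinase at the alpha and beta receptor, was at 16.0, 14.5 and 16.5 FPKM in miR-424 cells and at 16.3, 15.6 and 15.6 FPKM in EV cells, with overlapping groups.

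The transcription factors covered a range of levels, and 0 of 4 passed in limma, nor had any an unadjusted p under 0.05. STAT2 was at 13.1, 12.8 and 11.2 FPKM in miR-424 cells and at 12.6, 12.2 and 12.04 FPKM in EV cells, a log2 change of 0.00 ± 0.06 (SE). IRF9, its partner in ISGF3, was at 1.92, 2.07 and 1.99 FPKM in miR-424 cells and at 2.06, 2.14 and 1.997 FPKM in EV cells. The groups overlapped for both subunits.

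IRF1, itself induced by interferon-gamma, was at 3.60, 3.57 and 3.77 FPKM in miR-424 cells and at 3.59, 3.64 and 3.75 FPKM in EV cells. IRF7, which amplifies production of interferon alpha, was at 1.48, 1.42 and 1.54 FPKM in miR-424 cells and at 1.84, 1.77 and 1.52 FPKM in EV cells. EV replicate 3 lay within the IRF7 range of miR-424 cells, and the change of -0.13 ± 0.06 (SE) did not pass (limma, adjusted p = 0.259).

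**Figure D2:**
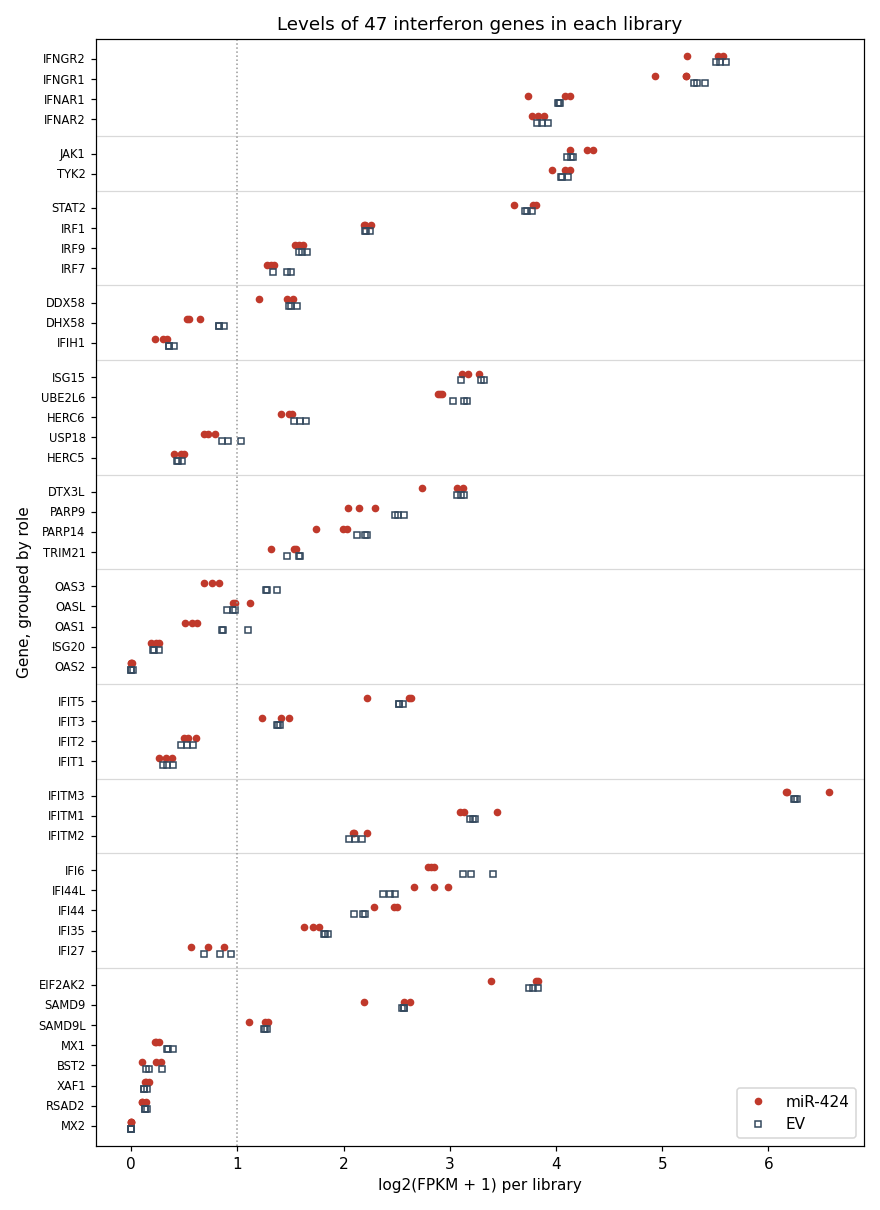
Level of each of the 47 genes in each library as log2(FPKM + 1) (horizontal axis), grouped by role, with filled red circles for the 3 miR-424 libraries and open squares for the 3 EV libraries. Receptors, kinases, STAT2, EIF2AK2 and IFITM3 lie on the right, whereas MX2, OAS2, RSAD2, XAF1, BST2 and MX1 lie near 0; the dotted line marks 1 FPKM.

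Levels differed widely within both the signalling genes and the antiviral effectors. Of 47 genes, 9 had a mean of at least 10 FPKM: the 4 receptor chains, the 2 kinases, STAT2, the RNA-activated protein kinase EIF2AK2 and IFITM3, which blocks entry of viruses and was the most abundant at 76.9 FPKM. At the other end MX2, a GTPase that blocks nuclear import of viruses, was listed at 0 in all 6 libraries, and OAS2 had its highest value at 0.00993 FPKM in EV replicate 3. RSAD2 (viperin), XAF1, BST2 (tetherin), ISG20, MX1, IFIT1 and IFIH1 had means from 0.0876 to 0.262 FPKM. The tested genes nearest to the minimum were OAS3 and SAMD9L with means of 1.08 and 1.37 FPKM, and the untested ones nearest to it were OASL and USP18 with 0.976 and 0.786 FPKM.

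OAS1, OAS2 and OAS3, adjacent on chromosome 12, encode the synthases of the RNase L activator. OAS3 (hg19, 113376248 to 113411054 in the table's coordinates) was at 0.696, 0.604 and 0.768 FPKM in miR-424 cells and at 1.43, 1.41 and 1.59 FPKM in EV cells. All miR-424 libraries were below all EV libraries. The ratio of means was 0.467 and the log2 change was -0.55 ± 0.06 (SE; limma, adjusted p = 0.00450), which passed in each of the 15 alternatives that tested it and was -1.0007 with a pseudocount of 0.1. OAS3 reached the minimum only through the EV group, and it also passed without a filter on low values (limma, adjusted p = 0.00878).

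OAS1, under the minimum, was at 0.488, 0.532 and 0.4202 FPKM in miR-424 cells and at 0.824, 0.808 and 1.14 FPKM in EV cells, also without overlap. Without the filter its adjusted p in limma was 0.0503, just short of the threshold. OASL, a relative without synthase activity that promotes RIG-I signalling, was at 0.973, 1.18 and 0.939 FPKM in miR-424 cells and at 0.963, 0.865 and 0.938 FPKM in EV cells, so that the groups overlapped. The exonuclease gene ISG20 lay between 0.134 and 0.199 FPKM in miR-424 cells and between 0.154 and 0.201 FPKM in EV cells.

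**Figure D3:**
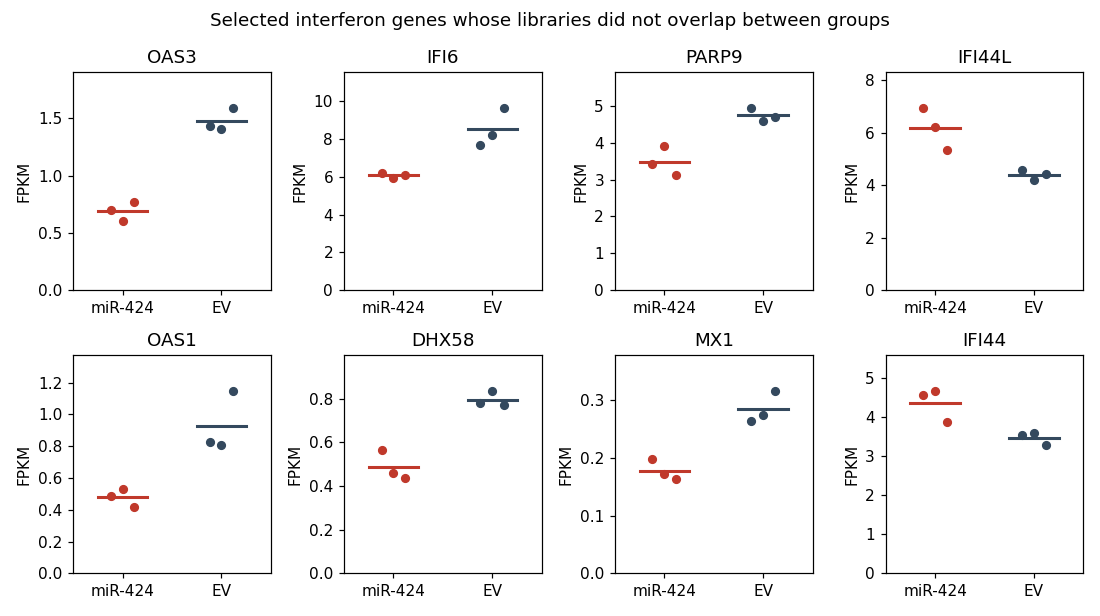
FPKM (vertical axes, from 0) of 8 genes in each library, miR-424 on the left and EV on the right, with a line at the group mean. The genes were selected from those whose libraries did not overlap. Of all tested loci, 26.9% were below EV in every miR-424 library and 6.59% above. Of all loci above 0 under the minimum, 13.5% were below. OAS3, IFI6, PARP9, OAS1, DHX58 and MX1 are lower in every miR-424 library than in any EV library, and IFI44L and IFI44 are higher; OAS1, DHX58 and MX1 are under the minimum for testing.

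The IFI genes, grouped by name and not by structure, held changes in both directions. IFI6 (hg19, chromosome 1, 27992571 to 27998724) was at 6.21, 5.95 and 6.07 FPKM in miR-424 cells and at 7.69, 8.20 and 9.63 FPKM in EV cells. The miR-424 libraries were close together and below the more scattered EV libraries (log2 change -0.42 ± 0.08, SE; limma, adjusted p = 0.0253). Leaving out any EV library or miR-424 replicate 1 or 2 ended the call of IFI6, with adjusted p between 0.0586 and 0.102 in limma, and so did quantile normalization (0.0548).

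IFI44L (hg19, chromosome 1, 79086087 to 79111830) was at 6.93, 6.23 and 5.34 FPKM in miR-424 cells and at 4.59, 4.18 and 4.42 FPKM in EV cells. Every miR-424 library was above every EV library, with a ratio of means of 1.402 and a log2 change of 0.40 ± 0.08 (SE; limma, adjusted p = 0.0371). The call of IFI44L ended without any EV library or miR-424 replicate 1 or 2 (limma, adjusted p = 0.0866 to 0.161) and without the filter (0.0662). IFI44, the next locus on chromosome 1 and a relative of IFI44L, was at 4.55, 4.65 and 3.88 FPKM in miR-424 cells and at 3.53, 3.59 and 3.29 FPKM in EV cells. It did not pass (log2 change 0.26 ± 0.07, SE; limma, adjusted p = 0.0709), and passed with median-of-ratios scaling, quantile normalization or removal of a trend on GC content.

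As IFI44L and IFI6 lie apart on the same chromosome and moved in opposite directions, their ratio within each library, which scaling between libraries leaves as it is, was computed after their values were seen. It was 1.11, 1.05 and 0.880 in miR-424 cells and 0.597, 0.510 and 0.459 in EV cells. The groups had to separate in this ratio, since neither gene overlapped between them, so it is given as a description with no test. IFI35 was at 2.28, 2.41 and 2.08 FPKM in miR-424 cells and 2.54, 2.52 and 2.60 FPKM in EV cells, below in every library but not past the threshold (limma, adjusted p = 0.197). IFI27 overlapped, with 0.477 to 0.826 FPKM in miR-424 cells and 0.604 to 0.912 FPKM in EV cells, under the minimum.

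PARP9 and its partner DTX3L, which form a complex that modifies ubiquitin and histones, are neighbours on chromosome 3. The macrodomain gene PARP14 lies nearby on that chromosome. PARP9 was at 3.43, 3.91 and 3.12 FPKM in miR-424 cells and at 4.93, 4.58 and 4.71 FPKM in EV cells. All miR-424 libraries were below all EV libraries, with a ratio of means of 0.735 and a log2 change of -0.36 ± 0.07 (SE; limma, adjusted p = 0.0310). Leaving out any EV library or miR-424 replicate 1 ended the call of PARP9, with adjusted p between 0.0979 and 0.146 in limma, and so did testing without the filter (0.0568).

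DTX3L was at 7.36, 7.70 and 5.65 FPKM in miR-424 cells and at 7.60, 7.75 and 7.40 FPKM in EV cells, and replicate 2 of the miR-424 group lay among the EV libraries (log2 change -0.13 ± 0.10, SE; limma, adjusted p = 0.512). The table gives PARP9 and DTX3L the same locus coordinates (hg19, 122246759 to 122294049), and nothing used here says whether counting used strand, so reads of the overlap may be shared. The PARP9 to DTX3L ratio, chosen after the values were seen, was 0.466, 0.507 and 0.552 in miR-424 cells and 0.649, 0.592 and 0.636 in EV cells, also a description with no test. PARP14 was at 3.09, 2.98 and 2.34 FPKM in miR-424 cells and at 3.37, 3.67 and 3.60 FPKM in EV cells, below in every library without passing (limma, adjusted p = 0.114). TRIM21, an antibody receptor and ubiquitin ligase, overlapped, with 1.48 to 1.94 FPKM in miR-424 cells and 1.76 to 2.003 FPKM in EV cells.

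The sensors of viral RNA were low. DDX58 (RIG-I) was at 1.88, 1.76 and 1.31 FPKM in miR-424 cells and at 1.80, 1.84 and 1.95 FPKM in EV cells, with overlap (limma, adjusted p = 0.482). DHX58 (LGP2), a regulator of the other sensors, was at 0.567, 0.458 and 0.438 FPKM in miR-424 cells and at 0.778, 0.833 and 0.770 FPKM in EV cells, without overlap. IFIH1 (MDA5) was at 0.265, 0.164 and 0.227 FPKM in miR-424 cells and at 0.321, 0.282 and 0.279 FPKM in EV cells, also without overlap. DHX58 and IFIH1 were under the minimum. Without the filter DHX58 fell (limma, adjusted p = 0.0247).

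Of the genes for conjugation of ISG15, a ubiquitin-like protein, 0 of 3 tested passed in limma. At an unadjusted p under 0.05 there was 1, lower, against 19.3% of all tested loci lower, which is close to what that share gives. ISG15 itself was at 7.98, 7.64 and 8.70 FPKM in miR-424 cells and at 8.97, 7.62 and 8.79 FPKM in EV cells, with overlap. UBE2L6, its conjugating enzyme, was at 6.42, 6.51 and 6.58 FPKM in miR-424 cells and at 7.95, 7.78 and 7.15 FPKM in EV cells, without overlap and just short of the threshold (log2 change -0.20 ± 0.05, SE; limma, adjusted p = 0.0596). USP18, which removes ISG15 and also restrains the alpha and beta receptor, was under the minimum at 0.726, 0.603 and 0.655 FPKM in miR-424 cells and 0.879, 1.04 and 0.809 FPKM in EV cells, again without overlap. The ligase gene HERC6 was lower in every miR-424 library (1.65 to 1.86 FPKM) than in EV cells (1.89 to 2.13 FPKM) without passing (limma, adjusted p = 0.244), and HERC5, the ligase that acts on ISG15 in human cells, overlapped at 0.323 to 0.406 FPKM in miR-424 cells and 0.350 to 0.392 FPKM in EV cells.

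The IFIT genes, whose products bind foreign RNA and which neighbour each other on chromosome 10, overlapped between the groups in all 4 cases. IFIT5 was the most abundant, at 5.12, 5.21 and 3.65 FPKM in miR-424 cells and 4.72, 4.89 and 4.75 FPKM in EV cells. IFIT3 was at 1.35 to 1.81 FPKM in miR-424 cells and 1.58 to 1.64 FPKM in EV cells, and IFIT2 and IFIT1 were under the minimum. IFIT2 was at 0.408 to 0.522 FPKM in miR-424 cells and 0.387 to 0.4997 FPKM in EV cells. IFIT1 was at 0.201 to 0.305 FPKM in miR-424 cells and 0.233 to 0.309 FPKM in EV cells. Reads of stretches shared between relatives, in this family, the OAS genes and the IFITM genes, can be assigned to the wrong copy. How much sequence these relatives share was not measured, so single values within these families are uncertain.

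The remaining effectors were EIF2AK2, SAMD9 and SAMD9L among those tested. EIF2AK2, which halts translation on binding double-stranded RNA, was at 13.2, 13.0 and 9.43 FPKM in miR-424 cells and at 12.8, 13.2 and 12.4 FPKM in EV cells, with replicate 3 of the miR-424 group far below the other 5 libraries. In SAMD9 too that library was the lowest, with 4.94, 5.18 and 3.56 FPKM in miR-424 cells and 4.85, 4.92 and 4.92 FPKM in EV cells. SAMD9L overlapped, at 1.15 to 1.44 FPKM in miR-424 cells and 1.37 to 1.43 FPKM in EV cells. MX1, the influenza-blocking GTPase, was under the minimum at 0.197, 0.173 and 0.164 FPKM in miR-424 cells and 0.264, 0.274 and 0.315 FPKM in EV cells, without overlap. Without the filter it fell (limma, adjusted p = 0.0338), although on the log2(FPKM + 1) scale the change of so low a gene is compressed.

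Over the tested genes the miR-424 libraries all lay below EV in 8 of 31 (25.8%) and all above in 2 (6.45%), against 26.9% and 6.59% of all tested loci, which is again near the background. Of the 15 genes under the minimum and above 0, 5 were below in every miR-424 library (33.3%): DHX58, IFIH1, USP18, OAS1 and MX1. Of all loci under the minimum and above 0 this held for 13.5%, and 0 of the 15 genes were above in every library, against 3.32% of such loci. These loci were not matched in level to the 15 genes, so the shares are a description. Without the filter on low values, 46 of the 47 genes were tested. DHX58, OAS3, IFI6 and MX1 were then lower and 0 were higher, against 3.87% lower and 0.786% higher over all loci.

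The IFITM genes, short membrane proteins that trap viruses at the membrane, stood apart through a single library. IFITM3 was at 70.9, 71.1 and 93.8 FPKM in miR-424 cells and at 75.1, 74.5 and 75.9 FPKM in EV cells. Replicates 1 and 2 of the miR-424 group were thus below all EV libraries and replicate 3 above them. IFITM1 had the same pattern, with 7.76, 7.53 and 9.86 FPKM in miR-424 cells and 8.33, 8.45 and 8.12 FPKM in EV cells, and in IFITM2 replicate 3 was again highest, with 3.25, 3.27 and 3.66 FPKM in miR-424 cells and 3.14, 3.51 and 3.32 FPKM in EV cells. With all libraries the log2 changes of IFITM1 and IFITM3 were 0.00 ± 0.09 and 0.05 ± 0.11 (SE). Without replicate 3 of the miR-424 group they were -0.11 and -0.08 and passed (limma, adjusted p = 0.0379 and 0.0152), and with the trend on GC content removed as well they did not pass.

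Replicate 3 of the miR-424 group was below the other 5 libraries in 16 of the 31 tested genes (51.6%) and above them in 5 (16.1%), against 54.4% and 14.0% of all tested loci. This library also had the highest value of the locus that holds the microRNA, 224 FPKM against 107 and 106 FPKM in replicates 1 and 2. Whether that level goes with its other differences was not tested. Its position varied with the GC content of the transcript. In the 13 tested genes under 45% GC the median difference from replicates 1 and 2 was -0.29 (log2), in the 8 genes from 45% to 55% it was -0.02, and in the 10 genes from 55% it was 0.04. Over all tested loci the same medians were -0.23, -0.07 and 0.04. As a description, Spearman's rho of this difference with GC content was 0.764 over the 31 genes and 0.623 over 11407 tested loci with a GC value, points that all share the same 3 libraries. EIF2AK2, SAMD9 and IFIT5, at 36.0% to 40.4% GC, were at the low end.

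**Figure D4:**
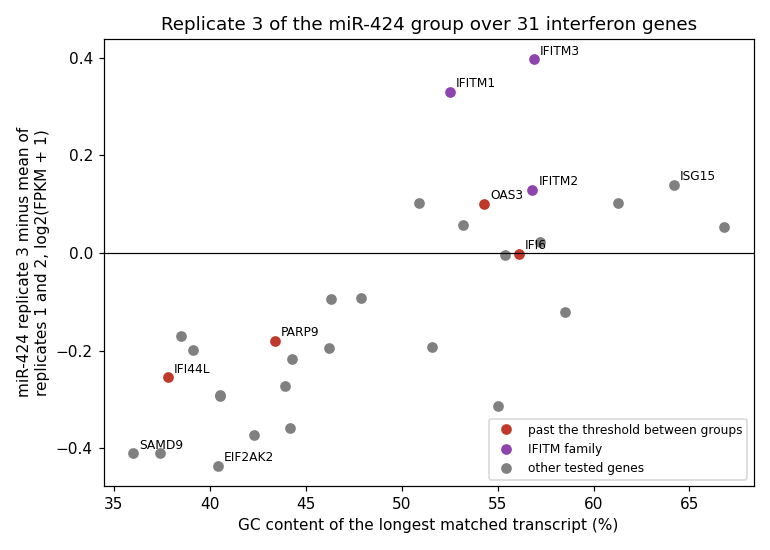
Difference of miR-424 replicate 3 from the mean of replicates 1 and 2 on the log2(FPKM + 1) scale (vertical axis) against GC content of the transcript (horizontal axis) for the 31 tested genes, with genes past the threshold between groups in red and IFITM genes in purple. Genes of low GC content such as SAMD9 (36.0%) and EIF2AK2 (40.4%) lie at -0.41 and -0.43, and the 3 IFITM genes lie above 0, up to 0.40 for IFITM3.

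Leaving out that library gave 3 higher (JAK1, IFI44L and IFI44) and 8 lower (IFNGR1, UBE2L6, PARP9, PARP14, OAS3, IFITM1, IFITM3 and IFI6) of 31 tested genes, which included the 4 called with all libraries, against 14.9% higher and 22.2% lower over all tested loci. With the GC trend removed in addition, 3 were higher and 6 lower, IFITM1 and IFITM3 no longer among them, against 11.8% higher and 18.2% lower over all tested loci. The GC trend removed with all 6 libraries in place gave 2 higher and 5 lower, IFI44, IFNGR1 and PARP14 being added, against 2.38% and 8.23% of all tested loci. Calls thus became more frequent over all loci too under these settings.

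Target sites of miR-424 were looked for in the longest stretch after an annotated stop codon of each gene (GENCODE 29, GRCh38). This stretch is called the UTR here. Transcripts of every type were used, also those with an early stop, so part of it can be coding sequence in other transcripts. The matches of IFNGR1, DHX58 and IRF9 lie in bases that read as coding sequence of the same gene. The counts of genes and loci include such matches. A site was TGCTGCT, the complement of the seed, or its last 6 bases followed by A, on the message strand. It was present in 11 of the 47 genes and in 8 of the 31 tested (25.8%), against 32.9% of the 9899 tested loci with a matched UTR. A longer UTR has more room for a match, and the median UTR length was 1162 bases in the 47 genes and 1649 bases in those loci. The sites of HERC6, also below EV in every miR-424 library, and of IFNAR1, IRF9, EIF2AK2 and IFIT1, which overlapped, are not printed. Over all loci, 26.9% of those tested and 13.5% of those above 0 under the minimum were below in every library. Of the matches printed next, those of IFNGR1 and DHX58 are in coding sequence and are not 3' UTR sites of the full-length message. The matches of 5 genes picked because their miR-424 libraries were all below EV, and of IRF1 for comparison, are shown in capitals, 5′ to 3′.
OAS1: agtaataaaacTGCTGCTAtttactcagtg
OAS3: cataccaccacTGCTGCTtcccacccagct
DHX58: agtccgcagcaTGCTGCTggagacccctca
PARP14: ggggccacagtTGCTGCTtcattaacatag
IFNGR1: attccagttgtTGCTGCTttactactcttt
IRF1: taacacacagaTGCTGCTccaaaaagtcag

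The 8 tested genes with a match had log2 changes from -0.55 (OAS3) to -0.00 (IRF1) and a median of -0.12. The 23 without a match had changes from -0.42 to 0.40 and a median of -0.05. IFNGR1 (-0.22) and IRF9 (-0.03) count among the 8 only through matches in coding sequence. The split is therefore not one by 3' UTR sites, and the medians without these genes were not computed. Without miR-424 replicate 3, IFNAR1 and EIF2AK2 were at 0.08 and 0.03, and the other tested genes with a site stayed negative. The change over all tested loci with a site is not given here, so a link of site and change was not tested. OAS1 is the gene with the longest match, in which the seed complement is followed by A. IFNAR1, with 2 sites, and IRF9 and EIF2AK2, with 1 each, overlapped between the groups, as did IRF1 (3.60, 3.57 and 3.77 FPKM in miR-424 cells and 3.59, 3.64 and 3.75 FPKM in EV cells). HERC6, with 2 sites, was below in every library, and IFIT1, with 2 overlapping matches, was under the minimum and overlapped. IFI6 and PARP9, which fell, and UBE2L6 held no such match in this UTR. Presence of a match does not show that the site is used.

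Other genes of the pathway gave 1 call. Of 68 further genes (10 interferon ligands, 10 of receptors, JAK-STAT and IRF factors, 14 sensors and adaptors, and 34 interferon-stimulated genes), 42 were tested, 0 were higher and 1 (2.38%) was lower in limma, against 1.24% and 6.32% of all tested loci. At an unadjusted p under 0.05 there were 1 higher (2.38%) and 13 lower (31%), against 4.29% and 19.3% of all tested loci. TMEM173 (STING), the adaptor that relays the sensing of cytosolic DNA, was that gene, at 5.82, 6.31 and 5.52 FPKM in miR-424 cells and 8.16, 7.90 and 7.88 FPKM in EV cells. All miR-424 libraries were below all EV libraries (log2 change -0.39 ± 0.05, SE; limma, adjusted p = 0.0108). Without EV replicate 1, 2 or 3 it did not pass, with adjusted p = 0.0718, 0.0698 and 0.0699 in limma. The miR-424 libraries were all below EV in 17 of the 42 (40.5%), against 26.9% of all tested loci, and the median log2 change of the 42 was -0.07.

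The ligands were all under the minimum, and 5 of 10 were listed at 0 in every library, IFNB1 and IFNG among them. IFNE, an interferon of epithelia named here after its values were seen, was the highest, at 1.27, 1.34 and 0.753 FPKM in miR-424 cells and 0.761, 0.734 and 0.715 FPKM in EV cells. Replicates 1 and 2 of the miR-424 group were above the EV libraries and replicate 3 lay among them. The locus of IFNE runs from 21454266 to 21559697 on chromosome 9 (hg19), while its longest matched transcript has 1475 bases. Overlap with other loci was not examined for the ligands, so reads of other transcripts may be included. IFNA1 was the only ligand above EV in every miR-424 library, at 0.0885, 0.195 and 0.111 FPKM in miR-424 cells and 0.0733, 0.0530 and 0.0571 FPKM in EV cells, and was also named after its values were seen.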

How the data were processed

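RNA sequencing of 6 samples was analysed from the authors' deposited FPKM values, 1 column per sample, matched to samples by title. Per the submitters' processing notes, the builds listed are hg19 (GRCh37), and among the tools are Cuffdiff, Cufflinks 1.3.0 and TopHat 1.4.1, without their roles. The sources used here do not give read numbers, strandedness, annotation or scaling. Sequencing depth is therefore unknown, and no count test, counting interval or limit of detection is given. FPKM summed to 409776 to 424564 per library.

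Loci averaging 1 FPKM or more over the 6 libraries were tested as log2(FPKM + 1) with limma 3.58.1 in R 4.3.3 (trended prior variance, two-sided, no covariate, Benjamini-Hochberg adjustment over all 11574 loci, threshold 0.05). This scale understates changes of low genes. The procedure was tested on simulated data with independent noise at the spread of the EV libraries in both groups. The simulation did not include the deviations of miR-424 replicate 3. The members and lists were chosen with earlier results of these data known. By rule, per-sample values are given for members past the threshold and for tested receptors, kinases, transcription factors and sensors; other members are given by role, with the highest mean in each, and of the related genes up to 8 past the threshold. Per-sample values of other genes, and the ratios, were chosen after their values were seen. GC content came from the longest GENCODE 29 transcript matched by RefSeq ID or symbol (98.6% of tested loci), and its trend was removed by loess (span 0.5) in an alternative. Other alternatives changed the pseudocount, the minimum, the scaling, the prior variance and the replicate block, or left out samples. Hg19 coordinates are those of the table. Promoters and the microRNA are from RefSeq, GRCh38.p14. For 85.5% of tested loci a stretch of at least 30 bases after an annotated stop codon was matched, from transcripts of any type.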

Additional observations from a re-analysis of the deposited data

How the results depend on the processing

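Counts are given as higher and lower in miR-424 cells. With the values as deposited, interferon genes gave 1 and 3, related genes 0 and 1, and all loci 144 and 731. Without a filter, interferon genes gave 0 and 4, and related genes had 3 lower. At a minimum of 5 FPKM 1 interferon gene was lower, and 468 loci were lower. Median-of-ratios scaling gave 2 interferon and 1 related gene higher, and 308 and 495 loci; quantile normalization gave 2 and 1 higher, and 319 and 447 loci. Removing the GC trend gave 2 and 5 interferon genes, 1 and 4 related genes, and 276 and 952 loci. Without miR-424 replicate 3 and with the GC trend removed, the counts were 3 and 6, 4 and 10, and 1360 and 2101. Leaving out each sample gave 0 to 3 and 1 to 8 interferon genes, 0 to 4 and 0 to 11 related genes, and 31 to 1728 and 77 to 2574 loci; the highest of each was without miR-424 replicate 3.

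The labels number the samples 1 to 3 in both groups. Deviations of same-numbered samples correlated by 0.051, 0.152 and 0.127 over tested loci, and EV replicate 1 correlated best with miR-424 replicate 2 (0.061), so the numbers were not taken to pair the samples. A replicate block gave 0 and 1 interferon genes (OAS3) and 79 and 270 loci; IFI6, IFI44L and PARP9 then did not pass (limma, adjusted p = 0.0568, 0.0593 and 0.0718). The block with the GC trend removed gave 2 and 2 interferon genes and 165 and 513 loci.

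Of the 5 named calls, 0 changed direction. OAS3 passed in 15 of 15 alternatives, TMEM173 in 13 of 16, PARP9 in 9 of 15, IFI44L in 9 of 16 and IFI6 in 8 of 16. The causes were not tested. Unknown depth limits the genes under 1 FPKM most.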
